A study of Homo sapiens with 6 samples.

Results

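The genes described here are 45 symbols in 2 blocks, 24 of glycolysis (the enzymes of the pathway and the kinases that set its flux) and 21 of the response of cells to low oxygen, without sugar or lactate transporters. Rows of the gene table whose symbol equalled a listed one were taken. This gave 43 of 20851 rows, all 24 of the glycolysis block and 19 of the hypoxia block, and the levels of EGLN2 and INSIG1AS were not analysed here. Poly(A)-enriched, strand-specific RNA-seq had been made from A375, a human melanoma cell line with mutant BRAF, in 3 biological replicates of each of 2 sublines. In A375RIPK4.KO cells the gene RIPK4, which encodes a receptor-interacting serine/threonine kinase, had been targeted with CRISPR/Cas9 and a lentivirally delivered guide RNA. A375neg cells had received a nontargeting guide RNA by the same route and are called a GFP control in the sample labels. The knockout libraries come from 1 clone (clone #1), so loss of RIPK4 and the other traits of that clone cannot be told apart. Both sublines were grown in RPMI medium with serum, and neither the labels nor the methods name a low-oxygen treatment, so all values are those of ordinary culture.

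Glycolysis turns glucose into pyruvate in the cytosol and yields ATP without oxygen. Its flux is set by hexokinase and phosphofructokinase, by the PFKFB enzymes, which make and remove the sugar bisphosphate that activates phosphofructokinase, and, downstream, by the pyruvate dehydrogenase kinases (PDK), which switch off the entry of pyruvate into the mitochondrial citrate cycle. In the presence of oxygen, prolyl hydroxylases of the EGLN family mark the alpha subunits of the hypoxia-inducible factor (HIF) for ubiquitination by the VHL complex, and HIF1AN hydroxylates an asparagine that blocks the binding of coactivators. When oxygen falls, HIF alpha pairs with ARNT, binds short motifs with an ACGTG or GCGTG core and raises genes of glycolysis, angiogenesis, pH control and mitochondrial turnover. Melanoma cells are known for high aerobic glycolysis.

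The 6 libraries held 21882863 to 26694140 counts. RIPK4 had 319, 368 and 404 raw counts in A375neg and 42, 51 and 61 in A375RIPK4.KO, a log2 fold change of -2.69 (SE 0.17, adjusted p = 1.01e-05 by the quasi-likelihood test of edgeR, adjusted after Benjamini and Hochberg as in all that follows). Of 9 listed melanocyte-lineage markers 5 were in the table, and SOX10 was at 7448 to 10056 raw counts in every library, while PMEL was at 3 to 22. MITF, S100B and S100A1 fell in A375RIPK4.KO (log2 fold changes -0.44, -0.89 and -0.86), and of the 4 markers of undifferentiated melanoma NGFR fell by 3.03 and SOX9 rose by 2.71. AXL was at 13990 to 16096 raw counts in every library and EGFR at 691 to 947. Their log2 fold changes were 0.18 (adjusted p = 0.0727, edgeR) and 0.22 (adjusted p = 0.261, edgeR). Of the leukocyte markers in the table, PTPRC had 0 to 3 counts and the lysosomal gene CD68, which other cells also express, 1033 to 1251. Among the endothelial ones PECAM1 had 21 to 24 in A375neg and 4 to 5 in A375RIPK4.KO, with CDH5 at 0 to 14 and VWF at 0 to 5, and the erythroid gene HBA1 had 0 to 2. The basal keratin KRT14 had 461 to 607 counts in A375neg and 121 to 158 in A375RIPK4.KO, and its partner KRT5 2 to 11. The part of these marker changes in the results below was not tested.

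In the glycolysis block, 4 of the 23 genes tested passed (adjusted p under 0.05), and all 4 were lower in A375RIPK4.KO. They were PGK1, an enzyme of the pathway, and 3 regulatory kinases, PFKFB4, PDK1 and PDK4. These are 17.4% of the block, beside 16.6% of all 14443 genes tested that passed in either direction and 8.24% that passed as lower. Only PDK4 was also at least 1.5-fold lower, a mark reached by 9.04% of all genes in either direction. The median log2 fold change of the 23 genes was -0.16, beside -0.005 for all genes tested, with 16 values below 0 and 7 above. In 13 of the 23 the groups did not overlap (36.5% of all genes), 10 with A375RIPK4.KO lower and 3 with it higher. In bulk RNA, fewer cells with a transcript and less of it per cell cannot be told apart. The block took 1.97%, 2.02% and 1.97% of all counts in the A375neg libraries and 1.73%, 2.01% and 1.83% in those of A375RIPK4.KO, so that knockout replicate 2 lay among the controls.

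**Figure D1:**
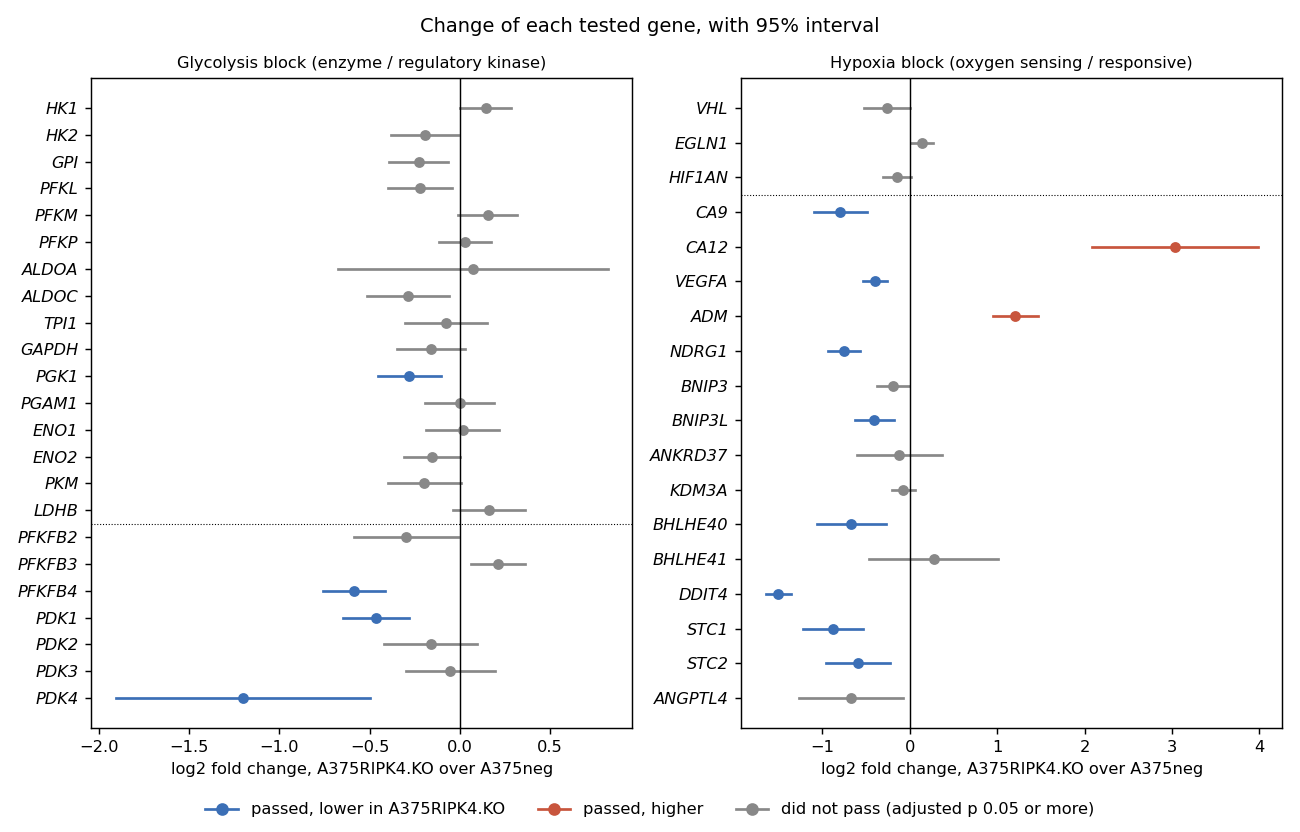
Points show the log2 fold change of A375RIPK4.KO over A375neg for each tested gene, bars the 95% interval of the fit, with 3 libraries per group and a separate horizontal scale for each block. Enzymes and oxygen sensors stand above the dotted lines, regulatory kinases and responsive genes below them. In the glycolysis block 4 of 23 genes passed and in the hypoxia block 10 of 18, beside 16.6% of all genes tested.

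Most enzymes of the pathway did not pass. Of 16 tested, 1 did (6.25%, beside 16.6% of all genes), and the 15 others had log2 fold changes between -0.28 and 0.16. PGK1, phosphoglycerate kinase, the first enzyme of the pathway that yields ATP (chrX:78104248-78129295), had normalised counts of 21232, 21673 and 20574 in A375neg and 15775, 19034 and 17491 in A375RIPK4.KO. Every knockout library was below every control. The log2 fold change was -0.28 (SE 0.08, 1.21-fold lower, adjusted p = 0.0366, edgeR), and the call was lost when any library other than knockout replicate 2 was left out, with log2 fold changes of -0.21 to -0.30 and adjusted p = 0.0845 to 0.133 (edgeR).

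GAPDH, glyceraldehyde-phosphate dehydrogenase and a common loading control, had 136644, 143839 and 140768 normalised counts in A375neg and 114643, 142261 and 120353 in A375RIPK4.KO. Knockout replicates 1 and 3 were below all controls, and replicate 2 lay among them. The log2 fold change of -0.16 (95% interval -0.35 to 0.03) did not pass (adjusted p = 0.247, edgeR). Without knockout replicate 2 it was -0.25 (adjusted p = 0.00346), and 10 genes of the block passed in place of 4, while over all genes 2952 of 14931 passed in place of 2403 of 14443. The added genes were GAPDH, PKM (pyruvate kinase, -0.28), PFKL (liver-type phosphofructokinase, -0.30), ALDOC (aldolase C, -0.38), TPI1 (triose-phosphate isomerase, -0.20) and, higher, PFKFB3 (0.23). Without any 1 of the 3 A375neg libraries, 2 genes of the block passed, PFKFB4 and PDK1.

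Per exon length, the block spanned a wide range. On the TPM scale (counts per exon length, scaled to the same total in every library), GAPDH had the highest level, at 8455, 8833 and 8675 TPM in A375neg and 7397, 8103 and 7535 in A375RIPK4.KO. Next came ENO1, the main enolase, at 4677, 4790 and 4615 against 4494, 5029 and 4587 TPM. The levels of ENO1 in the 2 groups overlapped, with a log2 fold change of 0.02 (95% interval -0.18 to 0.22).

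LDHA and ALDOA, which encode the muscle-type lactate dehydrogenase and aldolase A, had low values in every library. The row named LDHA had the lowest values of the block, with 7, 9 and 5 raw counts in A375neg and 6, 13 and 8 in A375RIPK4.KO, under the filter on low counts and not tested. Another row for the same gene, LDHA_1, a copy on a fix scaffold of the assembly, held 2244, 390 and 2987 raw counts in A375neg and 222, 241 and 1440 in A375RIPK4.KO, so the replicates of each group differed several-fold. ALDOA had 184, 153 and 130 raw counts in A375neg and 136, 228 and 84 in A375RIPK4.KO, overlapping groups with a log2 fold change of 0.07 (95% interval -0.67 to 0.82). It overlaps another annotated gene, LOC112694756, with 27 to 58 counts. Reads that fit several places can be lost or split in counting, and their part in these values was not tested, so no level of LDHA or ALDOA and no share of lactate dehydrogenase or aldolase isoforms is read here. Small copies of other enzymes were also listed: GPI_1 had 16 to 60 counts, the pseudogene TPI1P2 14 to 46 and PGAM1P5 0 to 3.

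**Figure D2:**
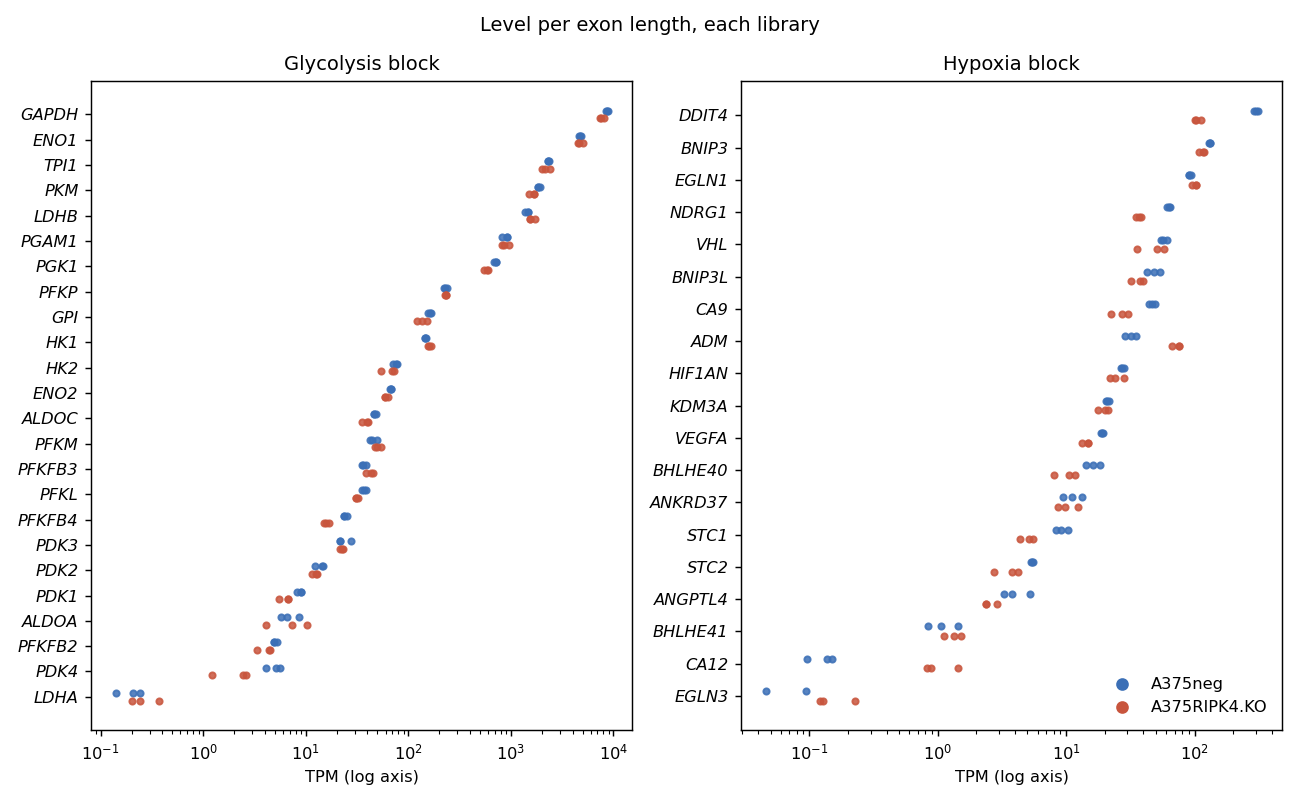
Level per exon length of each member in each library, in TPM on a log axis, ordered by level within each block. In the glycolysis block the row named LDHA, which leaves out the counts of the copy LDHA_1, lies below 1 TPM and GAPDH at 7397 to 8833 TPM. In the hypoxia block EGLN3 lies below 1 TPM and DDIT4 is highest in A375neg but not in A375RIPK4.KO, where the mean of BNIP3 is higher, and the 1 control library in which EGLN3 is at 0 cannot be drawn.

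Among the kinases that set glycolytic flux, 3 of 7 passed, all lower (8.24% of all genes passed as lower). PFKFB4, which makes the activator of phosphofructokinase (chr3:48517684-48563136), had 784, 791 and 836 normalised counts in A375neg and 505, 546 and 557 in A375RIPK4.KO. The groups were well apart. Its level fell by 0.58 on the log2 scale (SE 0.08, adjusted p = 0.000824, edgeR), which is 1.4995-fold and so just short of the 1.5-fold mark.

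PDK1, a pyruvate dehydrogenase kinase (chr2:172555373-172724312), had 727, 671 and 731 normalised counts in A375neg and 524, 482 and 535 in A375RIPK4.KO. All knockout libraries were below all controls, with a log2 fold change of -0.47 (SE 0.08, adjusted p = 0.00402, edgeR). PDK4, the kinase of the same family known for its rise in fasting (chr7:95583499-95596516), had 126, 100.4 and 139 normalised counts in A375neg and 28.4, 69.9 and 59.8 in A375RIPK4.KO. Again no libraries overlapped, and knockout replicate 1 was lowest by a wide margin. The log2 fold change was -1.20 (SE 0.31, 2.30-fold lower, adjusted p = 0.0288, edgeR). The call was lost without any 1 of the A375neg libraries or without knockout replicate 3 (log2 fold change -1.10 to -1.33, adjusted p = 0.051 to 0.102, edgeR).

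The other 4 kinases did not pass. PFKFB3, the inducible PFKFB isoform with the strongest kinase activity, had 1284, 1215 and 1181 normalised counts in A375neg and 1386, 1383 and 1491 in A375RIPK4.KO, without overlap and with a log2 fold change of 0.21 (adjusted p = 0.0601, edgeR). PFKFB2, the heart-type isoform, had a log2 fold change of -0.30 (adjusted p = 0.154), PDK2 of -0.16 (adjusted p = 0.387) and PDK3 of -0.05 (adjusted p = 0.794).

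Isoform shares, each gene's counts per exon length as a percent of the listed genes of its step, differed most among the PFKFB kinases. PFKFB3 made up 57.6%, 55.7% and 54.2% of PFKFB transcripts in A375neg and 68.2%, 67.5% and 68.0% in A375RIPK4.KO, a difference of 12.1 percentage points. Over the same libraries PFKFB4 went from 36.6% ± 1.61 to 25.7% ± 0.92 (SD, n = 3) and PFKFB2 from 7.55% ± 0.41 to 6.45% ± 0.55. PFKFB1, with 0 to 6 raw counts, was not part of this sum.

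Among the PDK kinases, PDK3 held the largest share in both groups, at 44.7%, 44.6% and 48.3% in A375neg and 52.0%, 51.2% and 53.1% in A375RIPK4.KO. The share of PDK4 went from 9.72% ± 1.15 to 4.88% ± 1.82 and that of PDK1 from 17.3% ± 1.43 to 14.7% ± 1.47 (SD, n = 3), while PDK2 stood at 27.1% ± 2.29 and 28.4% ± 2.10. HK1 made up 66.1% ± 0.96 of hexokinase transcripts in A375neg and 71.1% ± 3.31 in A375RIPK4.KO, with no overlap between libraries. For phosphofructokinase, PFKP (the platelet type) made up 73.6% ± 1.01 in A375neg and 74.0% ± 0.75 in A375RIPK4.KO, which overlapped, and PFKL 11.8% ± 0.73 and 9.99% ± 0.45, which did not. With 3 against 3 libraries the exact two-sided permutation test cannot go below p = 0.1, the value reached by every non-overlapping share (adjusted p = 0.15 over the 15 shares computed), so no share passed.

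**Figure D3:**
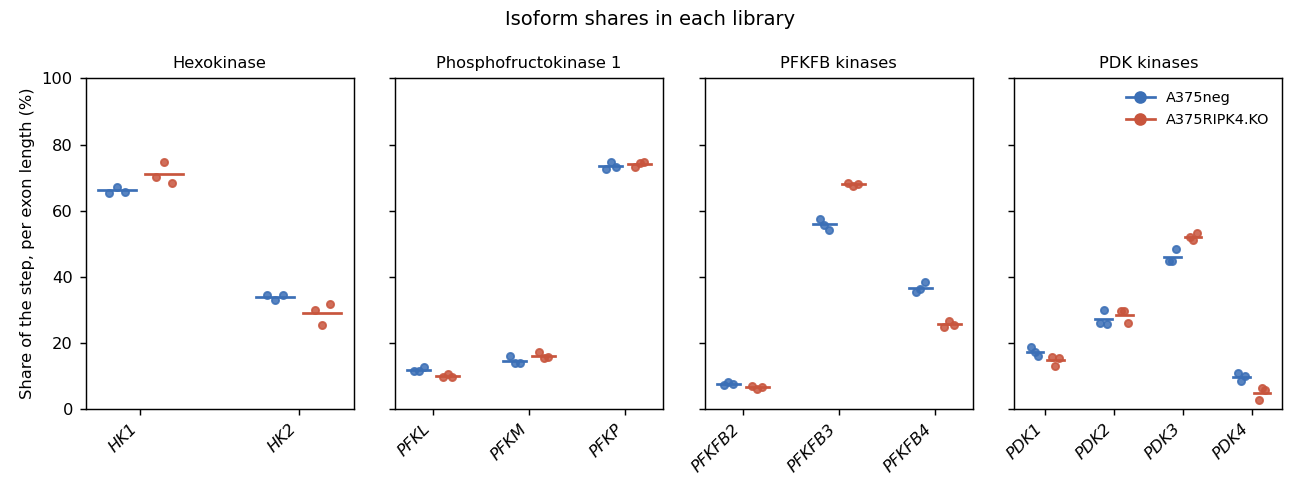
Share of each gene in its step (percent of counts per exon length over the listed genes of that step) in each library, with a line at the mean of 3 libraries. PFKFB3 and PFKFB4 have the widest gaps between groups, with PFKFB3 12.1 percentage points higher in A375RIPK4.KO and PFKFB4 lower by nearly as much.

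In the hypoxia block, 10 of 18 genes tested passed (55.6%, beside 16.6% of all genes), 8 lower and 2 higher in A375RIPK4.KO (beside 8.24% and 8.4% of all genes). Lower were DDIT4, STC1, CA9, NDRG1, BHLHE40, STC2, BNIP3L and VEGFA, and higher were CA12 and ADM. Of these, 6 of the lower genes and both of the higher ones were at least 1.5-fold apart (4.65% and 4.39% of all genes). The median log2 fold change was -0.33, with 14 values below 0 and 4 above. The groups did not overlap in 15 of the 18 (36.5% of all genes), 12 with A375RIPK4.KO lower. As a share of all counts the block took 0.0960%, 0.0958% and 0.0966% in A375neg and 0.0771%, 0.0763% and 0.0775% in A375RIPK4.KO, where knockout replicate 2 did not stand apart. Without any 1 library, 7 to 10 genes of the block passed.

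The oxygen sensors did not pass. VHL, the substrate-binding subunit of the ubiquitin ligase, had 1390, 1259 and 1308 normalised counts in A375neg and 1255, 891 and 1156 in A375RIPK4.KO, where all knockout libraries were below the controls, replicate 1 only by a little. Its log2 fold change was -0.26 (95% interval -0.52 to 0.002, adjusted p = 0.169, edgeR). EGLN1, the main prolyl hydroxylase, had a log2 fold change of 0.14 (adjusted p = 0.124) and HIF1AN, the asparagine hydroxylase, of -0.14 (adjusted p = 0.204). EGLN3, a prolyl hydroxylase that HIF itself induces, was the least abundant gene of the block, with 0, 2 and 4 raw counts in A375neg and 8, 5 and 5 in A375RIPK4.KO, and was not tested. The first of these libraries allows up to 3 counts, and at this depth no fold is given. Since the level of EGLN2 was not analysed here, shares of the prolyl hydroxylases are not read.

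DDIT4, also known as REDD1, a stress-induced inhibitor of mTORC1 (chr10:72273924-72276036), had the largest fall of the block, and per exon length the highest level of its genes in A375neg. It had 3467, 3355 and 3275 normalised counts in A375neg and 1200.2, 1231 and 1122 in A375RIPK4.KO. The spread within each group was small beside the gap. The log2 fold change was -1.51 (SE 0.06, 2.84-fold lower, adjusted p = 1.05e-06, edgeR), and per exon length the level went from 301 to 105 TPM. In A375RIPK4.KO the mean level of BNIP3, 114 TPM, was above that of DDIT4.

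Next in size among the lower genes was STC1, stanniocalcin 1, a secreted glycoprotein of calcium and phosphate balance, with 233, 206 and 188 normalised counts in A375neg and 118, 107.5 and 115 in A375RIPK4.KO. The groups did not overlap, and the log2 fold change was -0.88 (SE 0.15, adjusted p = 0.0038, edgeR). Its relative STC2 had 184, 178 and 180.1 normalised counts against 136, 99.2 and 125, with the controls close together and every knockout library below them. The log2 fold change of STC2 was -0.59 (SE 0.16, 1.51-fold lower, adjusted p = 0.0379, edgeR), and it did not pass without any 1 library other than knockout replicate 1 (log2 fold change -0.47 to -0.62, adjusted p = 0.0683 to 0.104).

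The carbonic anhydrases moved in opposite directions. CA9, a membrane enzyme that acidifies the outside of the cell and a widely used hypoxia marker (chr9:35673928-35681159), had 419, 445 and 398 normalised counts in A375neg and 263, 266 and 199 in A375RIPK4.KO. No knockout library reached the controls, and the log2 fold change was -0.79 (SE 0.13, 1.73-fold lower, adjusted p = 0.00366, edgeR). CA12, another membrane-bound carbonic anhydrase (chr15:63321378-63381846), had 6, 6 and 4 raw counts in A375neg and 31, 59 and 32 in A375RIPK4.KO. All knockout libraries were above all controls, at a low level in both, 0.13 TPM in the mean of A375neg and 1.05 TPM in that of A375RIPK4.KO. In the fit the log2 fold change was 3.03 (95% interval 2.09 to 3.98, adjusted p = 0.00117, edgeR).

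ADM, which encodes the vasodilating peptide adrenomedullin (chr11:10305073-10307397), was the other gene that rose. Normalised counts were 421, 516 and 477 in A375neg and 940.0, 1221 and 1100.1 in A375RIPK4.KO, so the lowest knockout library was well above the highest control. This was a log2 fold change of 1.21 (SE 0.11, 2.31-fold higher, adjusted p = 0.000132, edgeR).

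NDRG1, a cytosolic protein linked to differentiation and suppression of metastasis, had 3412, 3379 and 3232 normalised counts in A375neg and 1801, 2202 and 1937 in A375RIPK4.KO. Here too the groups were apart, with a log2 fold change of -0.75 (SE 0.08, 1.69-fold lower, adjusted p = 0.000234, edgeR). VEGFA, the main angiogenic growth factor, had 1487, 1481 and 1508 normalised counts against 1101, 1139 and 1153. Both groups were tight and apart, and VEGFA fell by 0.40 on the log2 scale (SE 0.06, 1.32-fold, adjusted p = 0.00174, edgeR).

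BHLHE40, a transcriptional repressor of the circadian and hypoxia responses, had 297, 341 and 380.1 normalised counts in A375neg and 161, 240.1 and 239 in A375RIPK4.KO. The highest knockout library was below the lowest control, and the log2 fold change was -0.67 (SE 0.18, adjusted p = 0.0312, edgeR). BNIP3L, a mitochondrial receptor for mitophagy also called NIX, had 995, 1142 and 1263 normalised counts against 837, 807 and 923. The groups were closer here, with a log2 fold change of -0.41 (SE 0.10, adjusted p = 0.0216, edgeR). Both calls were lost without A375neg replicate 2, without A375neg replicate 3 or without knockout replicate 1, BHLHE40 with log2 fold changes of -0.50 to -0.66 and adjusted p = 0.0607 to 0.118, and BNIP3L with -0.32 to -0.40 and adjusted p = 0.0562 to 0.0877.

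**Figure D4:**
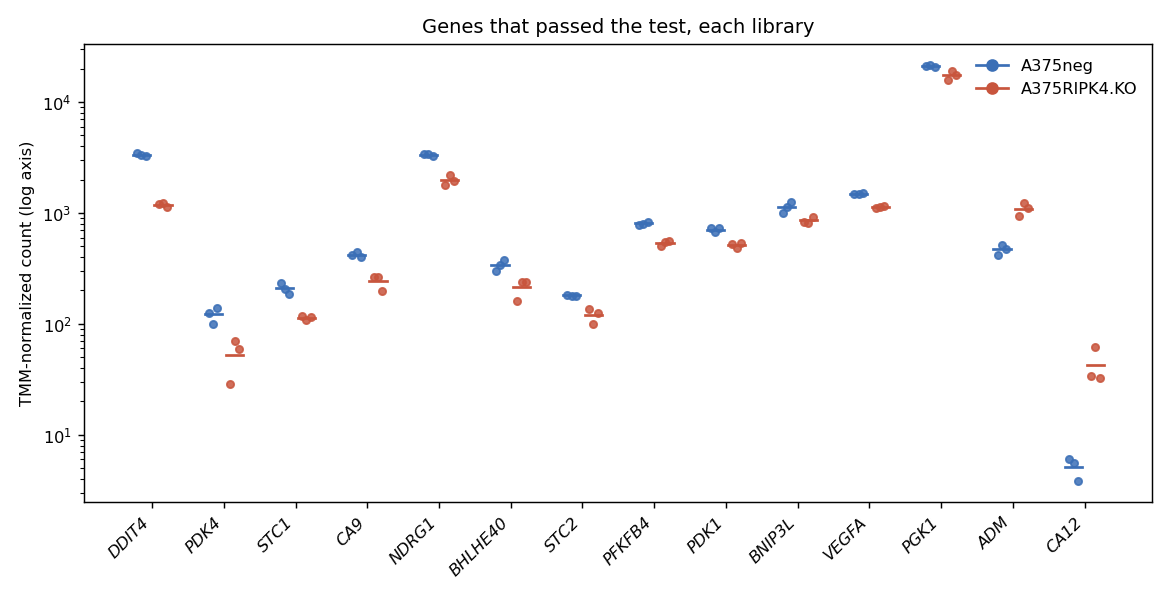
Normalised count (TMM, log axis) of each member that passed, in each library, with a line at the mean of 3 libraries. DDIT4 shows the widest gap among the 12 lower genes, ADM and CA12 lie higher in A375RIPK4.KO, and no group overlaps another.

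The remaining 5 responsive genes did not pass. BNIP3, the relative of BNIP3L, had a log2 fold change of -0.19 (adjusted p = 0.145, edgeR), and KDM3A, a histone demethylase, of -0.07 (adjusted p = 0.447). ANKRD37, an ankyrin-repeat protein, had -0.12 (adjusted p = 0.757) and BHLHE41, the relative of BHLHE40, 0.27 (adjusted p = 0.626) from 18 to 35 normalised counts per library. ANGPTL4, an inhibitor of lipoprotein lipase, had 44.0, 51.6 and 70.1 normalised counts in A375neg and 30.6, 34.4 and 38.5 in A375RIPK4.KO, which did not overlap, and its log2 fold change of -0.68 had a wide interval (-1.27 to -0.08, adjusted p = 0.118).

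The promoters of 5 members are shown because HIF binds DNA at short motifs. They are the genes with the largest falls among those with a window in the promoter set used (DDIT4, PDK4 and CA9) and the genes that rose (ADM and CA12). STC1, which fell more than CA9, had no window in that set. Each is the 250 bases upstream of the RefSeq gene start on GRCh38.p14, 5′ to 3′ on the strand of the gene, with each match to ACGTG or GCGTG, or to their reverse complements CACGT or CACGC, in capitals. The positions are chr10:72273674-72273923 on the plus strand for DDIT4, chr7:95596517-95596766 on the minus strand for PDK4, chr9:35673678-35673927 on the plus strand for CA9, chr11:10304823-10305072 on the plus strand for ADM and chr15:63381847-63382096 on the minus strand for CA12.
DDIT4: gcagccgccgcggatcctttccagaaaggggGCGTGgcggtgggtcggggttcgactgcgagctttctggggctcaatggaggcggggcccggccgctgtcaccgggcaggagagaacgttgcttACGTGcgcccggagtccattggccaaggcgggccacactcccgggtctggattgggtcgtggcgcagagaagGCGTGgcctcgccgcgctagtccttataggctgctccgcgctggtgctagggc
PDK4: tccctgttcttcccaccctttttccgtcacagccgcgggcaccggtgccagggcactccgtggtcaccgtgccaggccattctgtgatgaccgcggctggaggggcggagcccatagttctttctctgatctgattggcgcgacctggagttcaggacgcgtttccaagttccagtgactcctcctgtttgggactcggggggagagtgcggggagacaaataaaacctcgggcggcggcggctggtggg
CA9: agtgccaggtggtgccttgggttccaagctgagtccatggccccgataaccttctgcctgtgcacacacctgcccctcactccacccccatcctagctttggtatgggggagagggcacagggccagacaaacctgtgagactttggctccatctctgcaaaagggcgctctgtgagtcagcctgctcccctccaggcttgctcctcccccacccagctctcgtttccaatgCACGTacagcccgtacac
ADM: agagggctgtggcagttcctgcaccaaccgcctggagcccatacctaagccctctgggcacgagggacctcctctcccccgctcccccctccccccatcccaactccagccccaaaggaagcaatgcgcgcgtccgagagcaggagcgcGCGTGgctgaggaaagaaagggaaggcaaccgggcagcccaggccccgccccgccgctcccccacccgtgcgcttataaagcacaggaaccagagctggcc
CA12: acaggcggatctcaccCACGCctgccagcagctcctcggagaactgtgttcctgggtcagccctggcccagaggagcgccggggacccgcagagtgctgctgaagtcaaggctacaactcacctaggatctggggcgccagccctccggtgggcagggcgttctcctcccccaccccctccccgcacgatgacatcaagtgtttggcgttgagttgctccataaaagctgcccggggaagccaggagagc

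The DDIT4 window held 3 matches, whose first bases are 219, 125 and 53 bases upstream of the start. CA9 held 1 match 18 bases upstream, ADM 1 at 101 bases and CA12 1 at 234 bases, and the PDK4 window held none. Thus genes that fell and genes that rose both had matches. Over windows of the 250 bases upstream of each start, either motif on either strand was found in 43.2% of 35116 RefSeq promoters. It was found in 25 of 47 windows of 23 glycolysis genes (53.2%) and in 14 of 17 windows of 15 hypoxia genes (82.4%), where a gene with several starts gives several windows. The hypoxia windows include those of EGLN2, whose level was not analysed. For the members that passed it was 9 of 11 windows of 10 genes, and for those tested that did not pass 27 of 48 windows of 25 genes. The windows were not matched for base composition, ACGTG is also part of the E-box CACGTG, and a match is a description of the letters and no evidence of binding. VEGFA, NDRG1, STC1 and BNIP3L, which all passed as lower, had no window in the promoter set, so the count for members that passed leaves them out.

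Further genes of the same pathways were counted from lists of other enzymes and regulators. Of 36 other genes of glycolysis and pyruvate use, 23 were tested and 6 passed (26.1%, beside 16.6% of all genes), 1 higher and 5 lower. The higher one was HKDC1, a hexokinase-domain protein, with 46, 31 and 36 raw counts in A375neg and 109, 105 and 96 in A375RIPK4.KO, all above the controls, and a log2 fold change of 1.58 (SE 0.23, adjusted p = 0.00174, edgeR). The lower ones, TIGAR, MINPP1, PGM1, PC and ME2, had log2 fold changes of -0.24 to -0.43.

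Of 12 HIF subunits and genes of HIF breakdown, 11 were tested and 3 passed (27.3%, beside 16.6% of all genes). HIF1A, the alpha subunit stabilised in low oxygen, had 8647, 9455 and 10623 raw counts in A375neg and 10306, 10374 and 11192 in A375RIPK4.KO, which overlap as raw counts but not after normalisation (9141 ± 804 against 11147 ± 279, SD, n = 3), and rose by 0.29 on the log2 scale (SE 0.07, adjusted p = 0.0275, edgeR). ARNT2, an alternative partner of HIF alpha best known in neurons, had 3610, 4219 and 3852 raw counts against 598, 650 and 645, far below every control, with a log2 fold change of -2.49 (SE 0.06, 5.61-fold lower, adjusted p = 7.46e-08, edgeR). SIAH1, a ubiquitin ligase that acts on prolyl hydroxylases, rose by 0.34 (adjusted p = 0.0437). EPAS1, which encodes the other main HIF alpha subunit, was low, with 59, 96 and 81 raw counts against 79, 66 and 57, and its log2 fold change was -0.08 (adjusted p = 0.865). ARNT, the usual partner, had 758, 897 and 833 raw counts against 644, 675 and 803 and a log2 fold change of -0.09 (adjusted p = 0.497).

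Of 35 other HIF-responsive genes, 29 were tested and 7 passed (24.1%, beside 16.6% of all genes), 6 of them lower. Of the lower genes, 2 passed the 1.5-fold mark: P4HA2, a collagen prolyl hydroxylase, with 915, 1026 and 986 raw counts against 542, 628 and 552 (log2 fold change -0.63, adjusted p = 0.000691), and AK4, a mitochondrial adenylate kinase, with 734, 970 and 890 raw counts against 471, 435 and 588 (-0.66, adjusted p = 0.00435). P4HA1, NFIL3, GBE1 and ZNF395 had log2 fold changes of -0.27 to -0.44. The median over the 29 genes was -0.22.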

How the data were processed

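Poly(A)-enriched, strand-specific libraries of 3 A375neg and 3 A375RIPK4.KO replicates were analysed. The submitters' processing notes name cutadapt, FastQC, HISAT2, HTSeq, DESeq2 and the build GRCh38.p13, with versions not given in the sources used here. Raw counts per gene were deposited as whole numbers. Over the members, further pathway genes and markers that have a row, the lowest summed count is 4. The normalized counts in the same table, a signal scaled by the authors with 1 size factor per library, were not used for tests. The deposited table also holds the authors' fold change ratio, its log2 value with a standard error, a Wald score and p-values, none of which was used.

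Raw counts were tested in R 4.3.3 with edgeR 4.0.16 (quasi-likelihood test after filterByExpr and TMM scaling, with p-values adjusted by the Benjamini-Hochberg method over 14443 genes). A gene passed at an adjusted p under 0.05, and 1.5-fold was a further mark. Normalised counts are raw counts scaled by the TMM library size, and 95% intervals use the standard error of the fit with 9 degrees of freedom. TPM and shares divided counts by the summed exon length in GENCODE v29, found for 89.2% of tested genes. Shares were compared by two-sided exact permutation tests. Gene positions and promoters are from RefSeq on GRCh38.p14, and each member's position overlapped the exon positions in the deposited table. Members named with all values are those that passed, the most and the least abundant of each block, GAPDH, VHL and those not tested. Of the further pathway genes, those that passed at 1.5-fold were so named, with HIF1A, EPAS1 and ARNT. Some results are not reported here. PFKFB3 and ANGPTL4 were added after their values were seen. Members, lists and tests were chosen with earlier results of these data known. Replicate numbers did not pair the libraries. Alternatives were DESeq2 1.42.0, its size factors, other filters, a replicate block, removal of the gene length trend (limma 3.58.1), summed copies and each library left out in turn, and the steps were tested on simulated data. Intervals cover the spread between these libraries, and floors of 3 counts cover counting error only. Python 3.11.15 with matplotlib 3.10.9 was used for the figures.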

Additional observations from a re-analysis of the deposited data

How the results depend on the processing

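The count of hypoxia genes that passed was 7 to 11 under all 14 alternatives run, beside 10. For glycolysis it was 4 and moved to 2 without A375neg replicate 1, 2 or 3, to 10 without A375RIPK4.KO replicate 2 and to 1 with the 1.5-fold mark, so leaving out 1 library gave 2 to 10. With no filter on low counts PGK1 (adjusted p = 0.0694) and STC2 (0.0552) lost their calls, which left 3 and 9 genes. GPI gained a call with DESeq2 (5 glycolysis genes) and without A375RIPK4.KO replicate 3, and ALDOC, PFKFB3 and EGLN1 gained one with the length trend removed (6 and 11 genes). Over all genes, 2403 passed, 1306 with the 1.5-fold mark and 1526 to 2952 with 1 library left out (lowest without A375neg replicate 2). With the replicate number as a block, 4 glycolysis genes, 10 hypoxia genes and 2549 of all genes passed, and no member's call changed. Same-numbered libraries had correlated deviations of 0.082, 0.036 and -0.012, beside -0.096 to 0.067 for the others, so the numbers are not read as pairs. PFKFB4, PDK1, CA9, VEGFA, ADM, NDRG1, DDIT4 and STC1 passed under each alternative that kept adjusted p under 0.05 as the rule, as did CA12 where it was tested (not with a mean of at least 50 counts).

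Signs turned only in members that did not pass. ALDOA was at 0.0744 and went to -0.0167 with the replicate block and -0.0255 with the length trend removed, and with 1 library left out it ranged from -0.3512 (without A375RIPK4.KO replicate 2) to 0.375. PGAM1 was at -9e-04 and went to 0.0021 with DESeq2, 0.0011 with DESeq2's size factors and 0.0034 with no filter, and ranged from -0.05 to 0.0807 (without A375RIPK4.KO replicate 1). With 1 library left out, PFKP ranged from -0.01 to 0.0661, ENO1 from -0.0883 to 0.087, TPI1 from -0.2018 to 0.0131, PDK3 from -0.1142 to 0.0756, ANKRD37 from -0.3314 to 0.024 and the share of PFKP from -0.021 to 0.961 percentage points. Single-library removals gave share differences of 11.26 to 12.97 points for PFKFB3 and -11.7 to -10.11 for PFKFB4. Counts below about 10 per library (LDHA, EGLN3, CA12 in A375neg) limit what can be said of these genes. Causes of the changes were not tested.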
